A study of Mus musculus with 2 samples.

Results

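The genes described here are 47 mouse genes of mitosis, spindle and kinetochore function: mitotic kinases and cyclins, spindle checkpoint and anaphase genes, the chromosomal passenger complex, kinesins, kinetochore and spindle proteins, condensin subunits and cytokinesis genes. They were chosen by name, and all 47 symbols were matched to an Ensembl gene among the 19202 genes of the deposited table. RNA was sequenced from telencephalic tissue of C57BL/6 embryos at embryonic day 12, from mice labelled H2AZcKO (here H2AZ cKO), in which the gene of the histone variant H2A.Z was deleted conditionally, and from H2AZfl/fl mice (the control), named for the same floxed alleles. The labels name no Cre driver, so which cells carried the deletion is not known here, and by the extraction protocol the dissected tissue was cerebral cortex. The table holds 1 count column per genotype, called a library here, and the control column is headed WT; the series text speaks of triplicates, which the table does not separate. With no replicate columns, the effect of genotype could not be tested, and every difference below lacks a check against biological spread.

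Mitotic genes form a wave of transcription in late S phase and G2. The cyclin-dependent kinase Cdk1, bound to B-type cyclins, drives entry into mitosis, the spindle checkpoint holds the cell until every kinetochore is attached, and the anaphase-promoting complex then has securin and cyclin B destroyed so that chromatids separate. In the embryonic telencephalon these transcripts mark the dividing progenitors of the ventricular and subventricular zones, since neurons have left the cycle. In tissue RNA, fewer cells of a type and less RNA per cell cannot be told apart.

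The H2AZ cKO library held 8839840 counts and the control library 8891198, and levels are given as counts per 1000000 (CPM) after TMM scaling. H2afz, the gene of H2A.Z.1 and by its symbol the targeted one, was lower in the H2AZ cKO, with 191 CPM where the control had 289 (ratio 0.661, 0.621 to 0.703). All ratios are H2AZ cKO over control, and the values in parentheses are exact 95% binomial (Clopper-Pearson) intervals that cover counting error only. The libraries also differed in sex-linked transcripts, with Xist at 732 CPM against 22.2 CPM and the Y-linked Eif2s3y at 1 count against 630. Genotype and this sex difference cannot be told apart in the ratio of any gene, autosomal genes included. The apical progenitor markers were present in both libraries, with the 10 genes together at 2909 and 2650 CPM.

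The mitotic genes were slightly higher in the H2AZ cKO as a group, and none was 1.5-fold apart in either direction. Summed, they took 57806 counts of the H2AZ cKO library and 54541 of the control library, a ratio of 1.10 (1.08 to 1.11), where the sum of all genes had a ratio of 1.03 under the same scaling. Their share of all counts was 0.654% and 0.613%. On the log2(CPM + 1) scale 40 of the 47 were above 0 and 7 below. Of the 14586 tested genes, those with at least 1 CPM in 1 library or both, 51.0% were above 0 and 49.0% below; among the 7933 genes at 25 CPM or more, the level of 46 of the 47, 54.1% were above 0. The median log2 ratio was 0.12, against 0.01 over all tested genes. The largest log2 ratio was that of Cdk1, at 0.39, and the lowest that of Pttg1, at -0.13.

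At the 1.2-fold size 4 genes were higher, Cdk1, Cks1b, Birc5 and Kif2c, and 0 were lower. Across all tested genes 11.4% were at least 1.2-fold higher and 13.4% at least 1.2-fold lower, and at 25 CPM or more 5.79% and 5.36%. Read against these shares, 4 of 47 is near the background. At the 1.5-fold size the background was 1.92% higher and 3.03% lower over all tested genes, and 0.290% and 0.315% at 25 CPM or more. The counting interval lay wholly above 1 for 25 of the 47 genes and wholly below 1 for 0. The corresponding shares of all tested genes were 12.6% above and 11.2% below. Deeply counted genes have narrow intervals, and at 25 CPM or more 19.0% had an interval above 1 and 14.1% below. The differences of the mitotic genes were thus many, small and mostly in 1 direction. With total counts in place of TMM scaling the intervals above 1 numbered 18 and those below 1 numbered 2, Mki67 and Aspm.

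**Figure D1:**
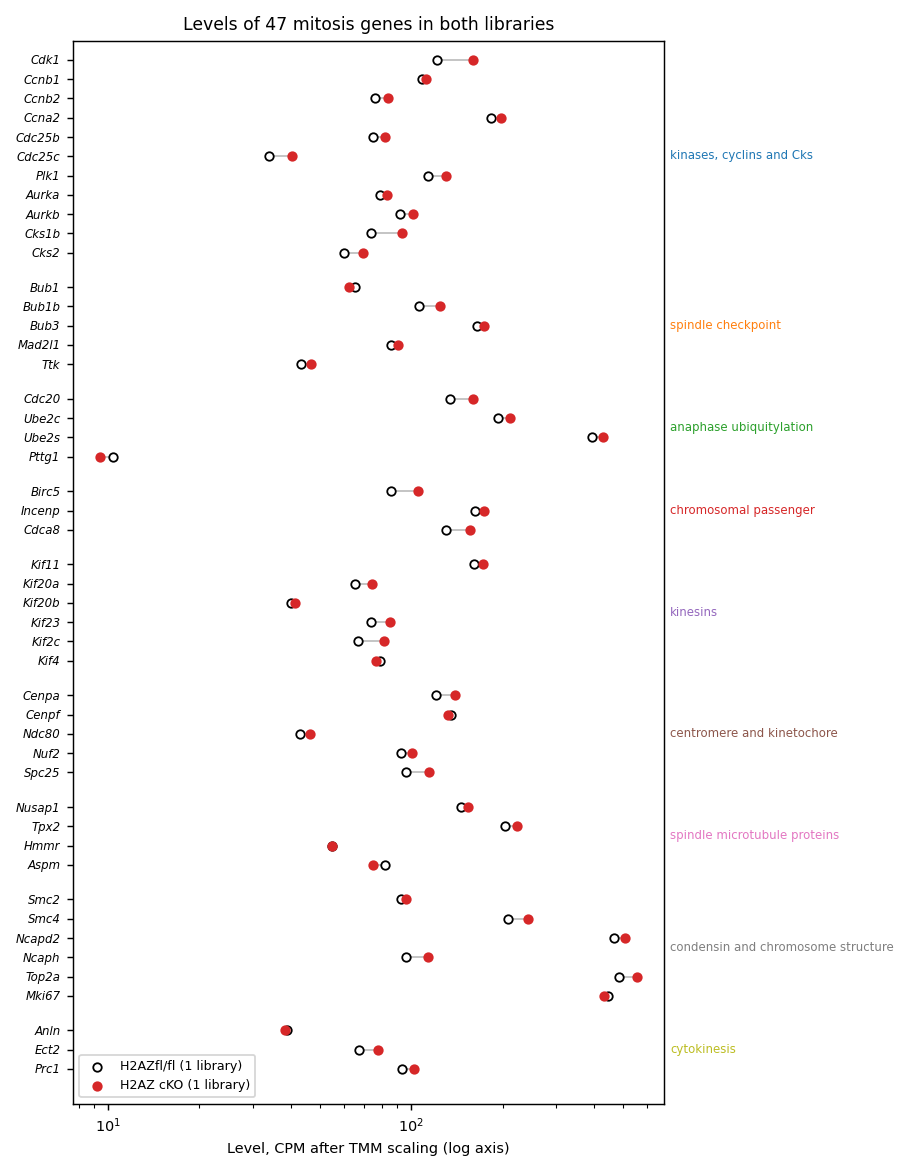
Level of each of the 47 mitosis genes in the H2AZ cKO library (filled) and the H2AZfl/fl library (open), in CPM after TMM scaling on a log axis, grouped by role. The filled point lies to the right of the open point for 40 genes, and the distance between them is small beside the spread between genes.

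The promoters of 6 textbook late cell cycle genes are shown because the genes share sequence elements that the choice of members did not use. The cell cycle genes homology region, with the core TTTGAA, is the element through which the MuvB complex with p130 represses these genes in resting cells, and with B-Myb and FoxM1 activates them in G2. CCAAT boxes bound by NF-Y commonly lie upstream of it. Each line holds the 100 bases before the RefSeq start on the strand of the gene (GRCm38.p6), 5′ to 3′. Capitals mark TTTGAA, its single-base variants TTTAAA and TTCGAA, and CCAAT, on either strand, so that ATTGG is CCAAT on the opposite strand.
Cdk1, chr10:69352913-69353012, minus strand: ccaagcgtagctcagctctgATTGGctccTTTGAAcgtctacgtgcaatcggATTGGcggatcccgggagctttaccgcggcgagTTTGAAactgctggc
Ccnb1, chr13:100786487-100786586, minus strand: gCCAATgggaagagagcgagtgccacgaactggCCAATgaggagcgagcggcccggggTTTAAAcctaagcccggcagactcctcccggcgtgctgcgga
Ccnb2, chr9:70421555-70421654, minus strand: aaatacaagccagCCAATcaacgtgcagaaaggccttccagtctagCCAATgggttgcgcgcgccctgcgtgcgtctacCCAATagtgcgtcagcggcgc
Cdc20, chr4:118437344-118437443, minus strand: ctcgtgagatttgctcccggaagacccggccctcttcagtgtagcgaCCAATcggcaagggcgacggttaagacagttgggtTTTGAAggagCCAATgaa
Plk1, chr7:122159335-122159434, plus strand: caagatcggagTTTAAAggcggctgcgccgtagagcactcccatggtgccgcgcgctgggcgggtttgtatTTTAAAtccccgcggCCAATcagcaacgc
Aurka, chr2:172370571-172370670, minus strand: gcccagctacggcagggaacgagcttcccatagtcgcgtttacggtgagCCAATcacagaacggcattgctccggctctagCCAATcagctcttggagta

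Cdk1 holds TTTGAA at 71 and 15 bases before its start and Cdc20 at 18 bases before, while Ccnb1 holds TTTAAA at 42 bases before. In Ccnb2, Plk1 and Aurka a TTTGAA lies 5, 31 and 33 bases after the start, outside the lines shown, and Ccnb2 holds another 167 bases before it. RefSeq promoters were matched by symbol for 40 of the 47 genes. In the 300 bases from 250 before to 50 after the start, TTTGAA on either strand was present in 29 of the 40 genes (72.5%), against 20.2% of 27025 genes with a promoter and 13.8% of 10110 protein-coding genes with at least 20 counts here. TTTAAA was present in 9 of the 40 (22.5%), against 14.9% and 10.98% of those backgrounds, and TTCGAA in 5 (12.5%), against 1.80% and 2.49%. In all, 34 (85.0%) held at least 1 of the 3, against 31.9% and 23.9%. CCAAT was present in 29 (72.5%), against 41.1% and 43.3%. Matches of different motifs were counted separately and may share bases. A match is a description of the sequence, and binding at these promoters was not measured here. Cdk1 and Ccnb1, whose windows both hold CCAAT and a form of the core, had ratios of 1.32 and 1.03.

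All 11 kinase, cyclin and Cks genes were above 0. Their median on the log2 scale was 0.14, and 6 of them had intervals above 1. Cdk1, the kinase of mitotic entry (ENSMUSG00000019942, chromosome 10 at 69336635 to 69352938), had 1390 counts where the control had 1093. These are 159 and 121 CPM, or a ratio of 1.32 (1.21 to 1.43). Its cyclin partners were closer to 1. Ccnb1 had 977 counts in each library (112 and 108 CPM; 1.03, 0.946 to 1.13), and Ccnb2 had 731 against 686 (83.9 and 76.1 CPM; 1.10, 0.992 to 1.23). Ccna2, which encodes the cyclin of S phase and G2, had 1717 against 1650 (197 and 183 CPM; 1.08, 1.01 to 1.15). The interval of Cdk1 did not overlap that of Ccnb1 or Ccna2.

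The Cks proteins are small subunits that dock Cdk complexes onto phosphorylated substrates. Cks1b had 814 counts against 664 (93.4 and 73.6 CPM), a ratio of 1.27 (1.14 to 1.41), and Cks2 had 604 against 542 (69.3 and 60.1 CPM; 1.15, 1.02 to 1.30). The phosphatases that switch Cdk1 on were at 1.09 (0.981 to 1.21) for Cdc25b and 1.19 (1.02 to 1.39) for Cdc25c, which had the fewest counts of this group, 353 and 307. Of the Polo and Aurora kinases, which build the spindle and correct attachments, Plk1 was at 131 against 114 CPM (1.15, 1.05 to 1.25). Aurka and Aurkb had intervals that held 1, at 1.05 (0.947 to 1.17) and 1.10 (0.998 to 1.21).

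The spindle checkpoint genes lay near 1 except Bub1b. Bub1b, which encodes the BubR1 subunit of the complex that inhibits Cdc20, had 1086 counts against 960 (125 and 106 CPM; 1.17, 1.07 to 1.28). Bub1, the kinase that marks the inner centromere, had 543 against 587 (62.3 and 65.1 CPM; 0.957, 0.850 to 1.08). Bub3 and Mad2l1, which bind at unattached kinetochores, were each at 1.05 (0.981 to 1.13 and 0.954 to 1.17), and the kinase gene Ttk at 1.08 (0.940 to 1.25). The interval of Bub1b overlapped those of the other four members.

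In the anaphase group 3 of 4 genes had an interval above 1. Cdc20, the activator of the anaphase-promoting complex, had 1390 counts against 1208 (159 and 134 CPM; 1.19, 1.10 to 1.29). The ubiquitin-conjugating enzymes that work with the complex were at 212 against 193 CPM for Ube2c (1.10, 1.03 to 1.17) and 430 against 396 CPM for Ube2s (1.09, 1.04 to 1.14). Per kilobase of transcript Ube2s and Ube2c were the most abundant members in the control, at 320 and 200 CPM per kb. Pttg1, which encodes securin, the inhibitor of separase, had the fewest counts of all 47, with 82 against 94 (9.41 and 10.4 CPM). Its ratio of 0.902 had the widest interval, 0.663 to 1.23, so neither direction was detectable at this depth.

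The chromosomal passenger complex, which places Aurora B at centromeres and then at the midzone, was above 0 for all 3 genes. Birc5 (survivin) had 917 counts against 772 (105 and 85.6 CPM; 1.23, 1.12 to 1.35). Cdca8 (borealin) had 1362 against 1173 (156 and 130 CPM; 1.201, 1.11 to 1.30), just under the 1.2-fold size on the log2(CPM + 1) scale, at 0.26. Incenp, the scaffold, was at 1.06 (0.989 to 1.14). With Aurkb at 1.10, the 4 genes of this complex ran from 1.06 to 1.23 with intervals that overlapped.

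Of the 6 kinesins 5 were above 0. Kif2c, a kinesin that depolymerizes microtubules at centromeres, had 710 counts against 602 (81.5 and 66.8 CPM; 1.22, 1.09 to 1.36). Kif23 (85.4 and 73.5 CPM) and Kif20a (74.2 and 65.2 CPM), motors of the central spindle and cytokinesis, were at 1.16 (1.04 to 1.29) and 1.14 (1.02 to 1.28), and Kif11, which separates the spindle poles, at 1.08 (1.002 to 1.16). Kif20b had 360 counts against 361 (1.03, 0.889 to 1.197). Kif4, the chromokinesin on the X chromosome and the one X-linked member, had 669 against 709 (0.976, 0.877 to 1.09). The part of the sex difference between the libraries in the value of Kif4, or of any other member, was not tested.

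Among centromere and kinetochore genes Spc25 and Cenpa had intervals above 1. Cenpa, the histone H3 variant of centromeres, had 1215 counts against 1090 (139 and 121 CPM; 1.15, 1.06 to 1.25). The Ndc80 complex, which binds microtubule ends, had 3 subunit genes among the members: Spc25 (115 and 96.3 CPM) was at 1.19 (1.09 to 1.31), Nuf2 at 1.08 (0.985 to 1.19) and Ndc80 at 1.08 (0.935 to 1.24), with overlapping intervals. Cenpf, a large coiled-coil protein of the outer kinetochore, was at 0.978 (0.901 to 1.06). The spindle microtubule proteins had the lowest median of the 9 groups, 0.04 on the log2 scale. With the trend of length, GC content and level removed it was 0.02, and the anaphase group was then lowest, at -0.01. Of the spindle microtubule proteins, Tpx2, the activator of Aurora A, was at 1.10 (1.03 to 1.17), Nusap1 at 1.06 (0.983 to 1.15) and Hmmr at 1.001 (0.881 to 1.14). Aspm, a spindle pole protein whose loss causes microcephaly in humans, had 653 counts against 738 (74.9 and 81.8 CPM; 0.915, 0.823 to 1.02), and with total counts its ratio was 0.890, with an interval wholly below 1.

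Condensin and chromosome structure genes took the most counts of any group, 16951 in the H2AZ cKO library and 16204 in the control library. Top2a, the topoisomerase that untangles sister chromatids, had 4848 counts against 4376 (556 and 485 CPM; 1.15, 1.10 to 1.19). Smc4 and Smc2 encode the ATPase pair shared by both condensins. Smc4 had 2113 against 1879 (242 and 208 CPM; 1.16, 1.09 to 1.24), while Smc2 had 837 in each library (1.03, 0.939 to 1.14). The condensin I subunits Ncaph (114 and 95.9 CPM) and Ncapd2 (505 and 467 CPM) were at 1.18 (1.08 to 1.30) and 1.08 (1.04 to 1.13). Mki67, the proliferation marker that coats mitotic chromosomes, had 3759 counts against 4033 (431 and 447 CPM; 0.964, 0.922 to 1.01). The interval of Mki67 did not overlap that of Top2a, which is also used as a proliferation marker. With total counts in place of TMM scaling Mki67 was at 0.937 (0.896 to 0.980), wholly below 1. Its transcript is among the longest of the members, at 10.1 kb where that of Top2a has 5.22 kb, and with the trend of length, GC content and level removed its log2 ratio was 0.03, above 0. The 3 cytokinesis genes were at 1.15 (1.03 to 1.29) for Ect2, the exchange factor that activates RhoA, 1.10 (1.001 to 1.21) for Prc1, which bundles the central spindle, and 0.984 (0.845 to 1.15) for Anln, the anillin scaffold of the contractile ring.

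**Figure D2:**
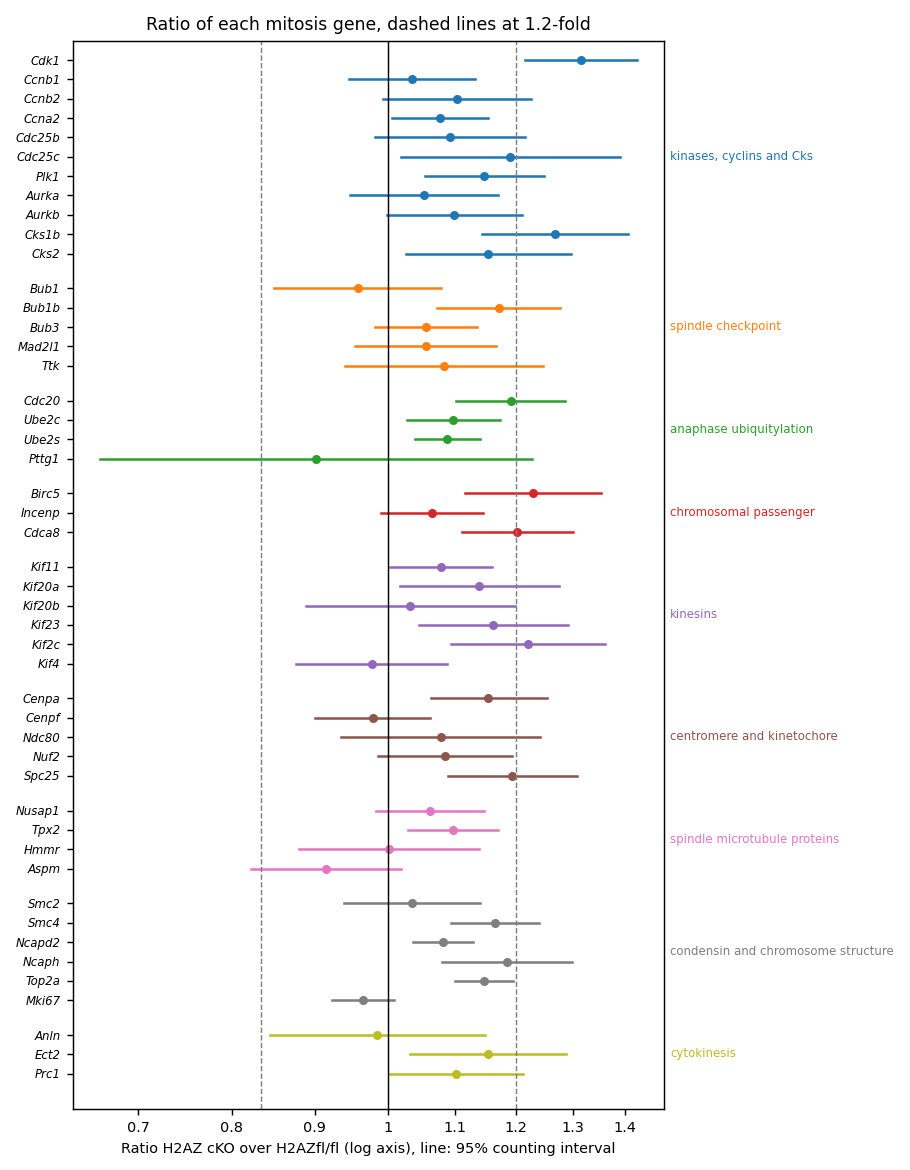
Ratio of each of the 47 mitosis genes, H2AZ cKO over H2AZfl/fl, on a log axis (points) with exact 95% counting intervals (lines), coloured by role; dashed lines mark 1.2-fold in each direction. The interval lies to the right of 1 for 25 genes and to the left for 0, and Cdk1 has the largest ratio, 1.32.

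In the authors' deposited table, whose test is not stated by any source used here, 11 of the 47 genes were higher with an adjusted p under 0.05 and 1 was lower, and 0 carried the authors' mark of significance. Over all 19202 genes in the authors' deposited table, the share higher at that adjusted p was 3.57% and the share lower 5.97%, and 0.896% were marked. Those 19202 include genes under 1 CPM, whereas all mitotic genes but Pttg1 were at 25 CPM or more. The shares among genes at that level were not worked out, so the 2 are not matched for depth. The 11 higher genes in the authors' deposited table were Cdk1, Cks1b, Bub1b, Cdc20, Birc5, Cdca8, Kif2c, Spc25, Smc4, Ncaph and Top2a, and the lower gene was Mki67. The authors' fold change for Cdk1 was 1.28 in the authors' deposited table, which uses no scaling beyond CPM. Since neither the test nor the makeup of the columns is stated, what spread those p-values hold is not known here.

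The ratio moved with transcript length, among the mitotic genes and among other genes. Across the 47 genes Pearson's r between the log2 ratio and the log2 length of the principal transcript was -0.40 and Spearman's rho -0.45, and over the 7926 genes at 25 CPM or more with a length they were -0.36 and -0.47. Over all 14543 tested genes with a length they were weaker, at -0.20 and -0.27. Genes are not independent replicates, and all points share the same pair of libraries. Among all genes at 25 CPM or more the median log2 ratio ran across bins of length from 0.17 at a median of 0.838 kb to -0.15 at 10.6 kb. Of the 7 mitotic genes under 1.5 kb, Cks1b, Cks2, Birc5, Cenpa, Ube2c and Ube2s were above 0, and the median of the 7 was 0.20. The seventh, Pttg1, went against this order, at 0.948 kb with the lowest log2 ratio of all 47, -0.13. Of the 4 genes over 6 kb, Mad2l1, Cenpf, Aspm and Mki67, only Mad2l1 was above 0 and their median was -0.04. All tested genes in the same length classes had medians of 0.11 and -0.10.

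Most mitotic genes lay above the median of genes of their own length. Set against 20 bins of length over the genes at 25 CPM or more, 39 of the 47 were above the median of their bin and 8 below, with a median difference of 0.11 on the log2 scale. The 8 below were Aurka, Bub1, Ube2c, Ube2s, Pttg1, Kif4, Hmmr and Anln. With the joint trend of the log2 ratio with length, GC content and level removed, the median of the mitotic genes was 0.10 and that of all genes 0.01, and 41 of the 47 were above 0 where 51.6% of all genes were. Then 2 of the 47, Cdk1 and Kif2c, were at least 1.2-fold higher, with log2 ratios of 0.40 and 0.27. Of all genes 11.2% passed that size, so 2 of 47 is not above the background. The share among genes at 25 CPM or more was not worked out after removal. The values of the short genes were lower after removal: 0.23 for Cks1b, 0.19 for Birc5, 0.07 for Cks2, 0.01 for Ube2c and -0.03 for Ube2s. Those of the long genes were nearer to or above 0: 0.09 for Cenpf, 0.03 for Mki67 and -0.01 for Aspm.

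**Figure D3:**
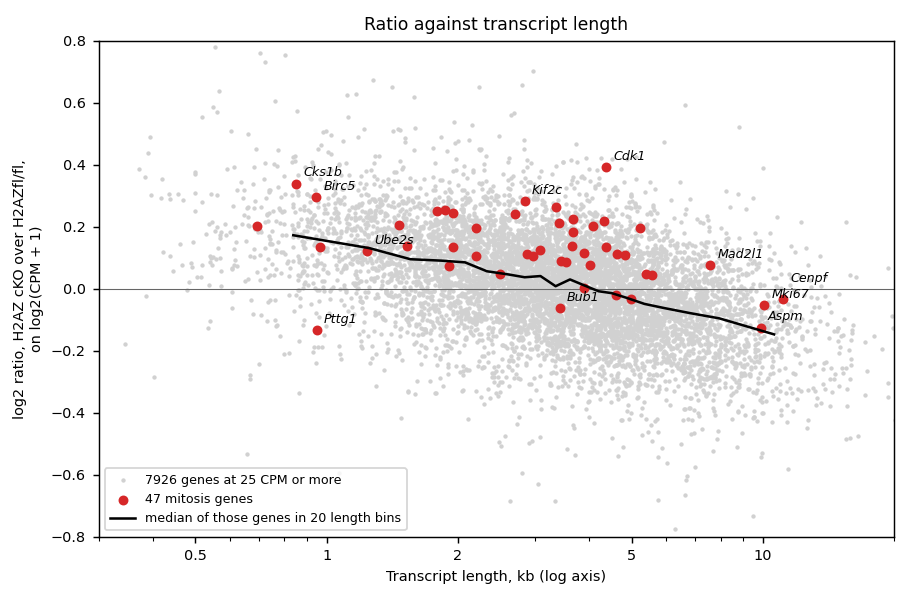
Log2 ratio of H2AZ cKO over H2AZfl/fl on log2(CPM + 1) against transcript length on a log axis, for the 47 mitosis genes (red) and the 7926 genes at 25 CPM or more with an annotated length (grey; genes beyond the axes are not drawn); the line joins the medians of 20 length bins. The line falls from 0.17 to -0.15, and 39 of the 47 mitosis genes lie above the median of their bin.

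Pooled over 9 wider lists, other genes of mitosis were nearer to 0, but the lists differed. Whether the genes of these lists are limited to dividing cells was not tested. The 9 wider lists of mitotic genes, which share no gene with the 47, held 142 names, of which 141 were tested. Of these 85 were above 0 and 56 below, where 51.0% of all tested genes were above 0. The median was 0.05 on the log2 scale, against 0.01 over all tested genes. With the joint trend removed 90 were above 0 and the median was 0.05, against 0.10 for the 47. In all, 10 were at least 1.2-fold higher and 5 at least 1.2-fold lower. Across all tested genes 11.4% and 13.4% passed that size, and at 25 CPM or more 5.79% and 5.36%. Other mitotic kinesins had a median of 0.12 over 7 genes, with Kif18a at 1.22 (1.03 to 1.44), Kifc1 at 1.18 (1.002 to 1.38) and Kif22 at 1.15 (1.06 to 1.25). With the joint trend removed the median of these kinesins was 0.11, and all 7 were above 0, so this list was not nearer to 0 than the 47. Other mitotic kinases and their regulators had a median of 0.09 over 12 genes, in which the Cdk1-inhibiting kinase Pkmyt1 was at 1.21 (1.04 to 1.42), cyclin F (Ccnf) at 1.14 (1.03 to 1.27) and Haspin, the histone H3 threonine kinase, at 0.749 (0.571 to 0.980). Other cytokinesis genes had a median of 0.11 over 8 genes, and 3 had an interval above 1 and 0 below. Diaph3 was at 1.16 (0.877 to 1.53), Cep55 at 1.12 (0.982 to 1.29) and Chmp4b at 1.09 (1.01 to 1.17).

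Centromere genes lay on both sides of 1. Among 32 other centromere and kinetochore genes, with a median of 0.06, Cenpn was at 1.25 (1.09 to 1.44), while Hjurp had 1626 counts against 2213 (187 and 245 CPM; 0.760, 0.713 to 0.811). Hjurp is the chaperone that loads Cenpa. Cenpa itself, at 1.15, lay in the direction opposite to Hjurp, and their intervals did not overlap. Hjurp kept a log2 ratio of -0.38 with the joint trend removed, against -0.39 before. The 4 other condensin subunits had a median of -0.09: Ncapg of condensin I was at 1.15 (1.005 to 1.31), and Ncapd3, Ncapg2 and Ncaph2 of condensin II at 0.848 (0.745 to 0.964), 0.889 (0.769 to 1.03) and 0.987 (0.915 to 1.06).

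The anaphase-promoting complex list had a median of 0.06 over 16 genes, with the subunit genes Anapc13 at 1.23 (1.07 to 1.42) and Cdc23 at 1.13 (1.03 to 1.24), and the inhibitor Fbxo5 at 1.14 (0.998 to 1.30). Cohesin genes had a median of 0.00024 over 15, with Smc1a at 1.11 (1.05 to 1.18), the loader Mau2 at 0.875 (0.794 to 0.964) and separase (Espl1) at 0.911 (0.814 to 1.02). Centrosome and spindle pole genes had a median of -0.01 over 26, with the centriole duplication genes Cep152 and Sass6 at 0.724 (0.573 to 0.912) and 0.755 (0.575 to 0.988) and the augmin subunit Haus8 at 1.22 (1.04 to 1.44). The 21 genes listed under late cell cycle transcription, not all of them specific to that phase, had a median of 0.05. Among them Nfyc was at 1.18 (1.06 to 1.31), E2f3 at 0.843 (0.731 to 0.971) and E2f7 at 0.822 (0.693 to 0.973). S phase genes were the list above the mitotic genes, at a median of 0.16 over 36, of which 33 were above 0, with Ung at 1.31 (1.12 to 1.53), Tipin at 1.28 (1.15 to 1.42) and Slbp at 1.27 (1.15 to 1.41). Without replicates the differences between lists were not tested.

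**Figure D4:**
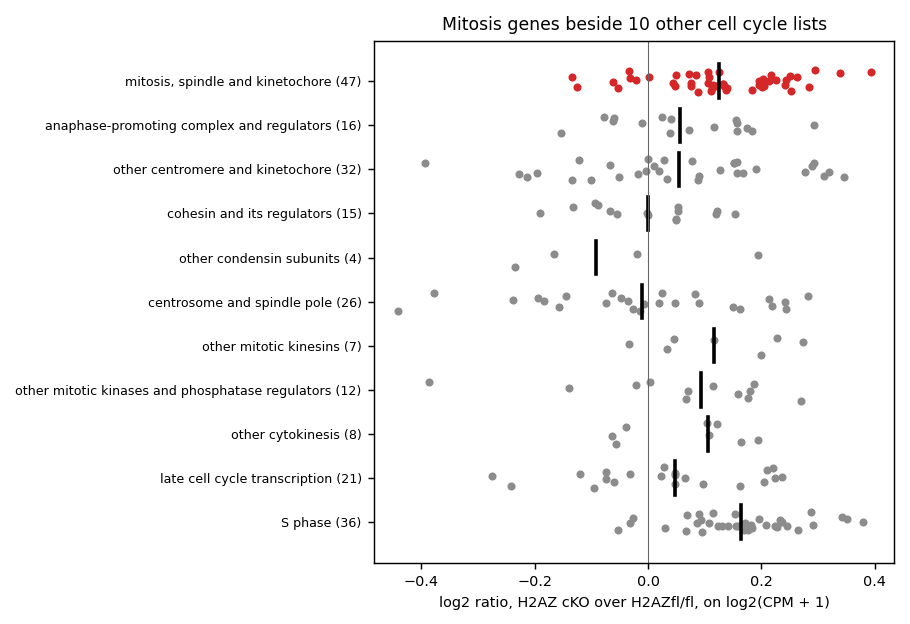
Log2 ratio of H2AZ cKO over H2AZfl/fl on log2(CPM + 1) for each of the 47 mitosis genes (red) and the tested genes of 10 other cell cycle lists (grey), with the number of genes in parentheses and the median of each list as a black bar. The mitosis genes have a median of 0.12 and S phase genes 0.16, and the centrosome, cohesin and other condensin lists lie at or under 0.01.

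Markers of other cells moved between the libraries beside these values. The 10 apical progenitor markers summed to a ratio of 1.10 (1.08 to 1.12), and counts of the 47 mitotic genes per count of those markers were 2.28 in each library. Such sums are led by the most abundant genes. Taken singly, 9 of the 10 markers were above 0, with log2 ratios from -0.04 to 0.67 and a median of 0.11. The 5 intermediate progenitor markers had 8871 counts against 8768, a smaller summed ratio of 1.05 (1.02 to 1.08). Per count of the S phase genes the mitotic genes were at 1.57 in the H2AZ cKO and 1.63 in the control. The 8 neuron markers had a summed ratio of 1.03 (1.02 to 1.04), which is that of all counts under TMM scaling, and 3 of their intervals lay above 1 and 2 below. Per count of these markers the mitotic genes were at 1.09 in the H2AZ cKO and 1.03 in the control. The 10 erythroid genes summed to 695 CPM against 368 CPM, with all 9 tested above 0, and the 10 microglia and macrophage genes to 52.2 CPM against 36.3 CPM, with 9 above 0. The 8 ventral telencephalon genes summed to 1482 CPM against 1121 CPM, and the 6 hypothalamic genes to 30.2 CPM against 69.6 CPM, with Nkx2-4 at 0 counts in the H2AZ cKO. Genes of these 2 regions were thus counted in both libraries, at unlike levels, although the protocol names cerebral cortex. The part of these cell types and regions in the levels of the mitotic genes was not tested. Exons of 12 of the 47 genes share bases with a gene on the opposite strand, and without stranded counting such reads cannot be told apart. Among them Ube2s shares 183 bases with Rpl28, which had 3308 counts against 3010, and Kif20a shares 1271 bases with Cdc23.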

How the data were processed

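The labels list 1 sample of total RNA per genotype. Per the labels' protocols, Trizol was used for extraction and an Illumina TruSeq kit on 2 ug RNA for the libraries. The series text speaks of triplicates, and no source used here says whether a column pools them. TopHat2 2.0.12, Bowtie2 2.2.3, HTSeq 0.6.0 and mm9 are named per the submitters' processing notes. The positions in the table match GRCm38 instead: 37 of the 47 genes have exactly the GENCODE M21 span and 47 overlap it. Strand and multi-mapping settings are not given there.

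Whole-number counts of reads were deposited for each Ensembl gene. The deposited CPM values are those counts per 1000000, with 0 written as 0.5 read. The authors' fold is the ratio of those CPM values, and the authors' log2 fold and p-value columns (raw and adjusted) were read but not recomputed. The control column, headed WT, was taken as the floxed control.

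Symbols were matched for 19112 genes. Counts were scaled with TMM (edgeR 4.0.16, R 4.3.3; factors 0.986 and 1.01); DESeq2 1.42.0 gave alternative size factors. The rest used matplotlib 3.10.9, scipy 1.17.1, pandas 2.3.3 and numpy 2.4.6 under Python 3.11.15. Log2 ratios use a pseudocount of 1 CPM; genes were tested, meaning compared, where the higher library reached 1 CPM. Where a count is 0, 3 counts are allowed, which is 0.344 CPM (H2AZ cKO) or 0.333 CPM (control). No molecular identifiers are named in the labels, so reads may be copies of 1 molecule, and intervals cover counting error only. Length and GC content are those of the longest APPRIS principal transcript in GENCODE M21, or of the longest transcript where none is marked. The trend had linear and squared terms, was fitted to genes within a log2 ratio of 1, and the median of all genes was added back. The ratios, intervals and trend removal were run on counts simulated with counting error only and scaled by total counts. That run cannot speak to biological spread, copied reads or TMM scaling. Alternatives were other scalings, pseudocounts and floors, removal of that trend and leaving out sex chromosomes.

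The members, lists and the 1.2-fold size were chosen with earlier results of these data known. Named genes are the members, H2afz, the up to 3 tested genes with the largest absolute log2 ratio in each wider list, and sex-linked genes as library facts; Rpl28 and Nkx2-4 were added after their values were seen, as was Ncaph2. One gene that the rule names is not reported here. For sequences, no promoter was matched for 7 members.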

Additional observations from a re-analysis of the deposited data

How the results depend on the processing

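No paired analysis was possible because there is 1 library per genotype, and for the same reason no library could be left out. The median log2 ratio of the 47 mitotic genes stayed above 0 in every setting tried, from 0.08 with total counts to 0.13 without the X and Y chromosomes, and 39 to 44 genes were above 0. The summed ratio of 1.10 was 1.07 with total counts or the CPM as deposited and 1.08 with DESeq2 size factors. Those scalings put the median of all genes at -0.03 (total counts or deposited CPM) and -0.02 (DESeq2), against 0.01 with TMM. The 4 genes at least 1.2-fold higher became 2 with total counts, with the deposited CPM, with the joint trend of length, GC content and level removed, and with the length trend alone removed. They became 3 with DESeq2 size factors and 5 with a pseudocount of 0.1 CPM. The count of genes at least 1.2-fold lower was 0 throughout. The log2 ratio of Ube2s, whose interval was above 1, turned to -0.026 with the joint trend removed, and no other named gene with an interval on 1 side of 1 changed sign. Among members whose interval held 1, Anln, Cenpf, Kif4 and Mki67 turned above 0 and Ccnb1 and Hmmr below 0 with the joint trend removed. Anln, Cenpf, Kif4 and Mki67 did so with the length trend alone removed. Hmmr, at 1.001, was also below 0 with total counts, the deposited CPM and DESeq2 size factors. Removal of the trend with length, GC content or level alone was chosen after seeing the data, and a trend removal gives no summed count. Depth limits Pttg1 most, with under 100 counts in each library.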
